A study of Mus musculus with 6 samples.

Results

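PI3K and mTOR restraint genes are genes whose products hold back the signalling chain that runs from phosphoinositide 3-kinase (PI3K) through the kinase AKT to the growth regulator mTOR complex 1. The 9 genes described here, of 22225 protein-coding genes in the annotation, were chosen by name: Sesn1, Sesn2, Sesn3, Ddit4, Tsc2, Prkab1, Phlda3, Pik3ip1 and Inpp5d. The choice was made with earlier results of these data known. Counts of the 9 genes set beside shares of all genes therefore describe this list and test nothing. A peak was counted for a gene when it overlapped the gene body, extended by 10 kb on both sides, by at least 1 bp in the mouse genome build mm9 with the GENCODE vM1 annotation. These windows held 7, 37, 2, 38 and 0 peaks in the 5 lists of the series, which were mock B cells (1413 peaks), irradiated (IR) B cells (24507), mock non-B cells (712), irradiated non-B cells (21400) and irradiated Trp53-/- spleen (83).

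The question put to these data was where the tumour suppressor p53 binds in splenic B and non-B cells after whole-body irradiation. Chromatin immunoprecipitation with sequencing (ChIP-seq) used the p53 antibody NCL-p53-CM5p on chromatin from pooled mice, with 1 library per group. The 4 wild-type groups came from Trp53+/+ C57/Bl6 mice aged 8 weeks, either mock treated or killed 4 h after 7 Gy of ionizing radiation. B cells were taken from spleen with magnetic beads against the B cell surface marker B220, and non-B cells were what the column let through, a mixture enriched for T cells. The Trp53-/- group, which lacks p53, was total spleen 4 h after 7 Gy and was neither sorted nor paired with a mock group, and no age was given for it. The lists hold no expression values, so the purity of the compartments was not tested here, and with 1 library per group no difference below has a replicate check or a p-value.

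Growth factor and antigen receptors activate PI3K, whose lipid product PIP3 recruits and activates AKT, and AKT in turn inhibits the TSC complex and so releases mTOR complex 1. The restraint genes act at separate steps of this chain: on PI3K itself, on PIP3, on the membrane recruitment of AKT, on TSC, or on the amino acid branch that brings mTOR complex 1 to the lysosome. Several of them are known p53 targets, through which a stress signal can slow growth and protein synthesis, and in lymphocytes the same chain sets survival and proliferation after antigen receptor engagement.

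p53 binds a response element made of a pair of decamers, each with a C at position 4 and a G at position 7. In the 600 bases around the midpoints of the members' peaks, 5 of the 9 genes had an unsplit element, that is 20 bases with no spacer, with both of these core bases in each decamer and at most 3 mismatches to the consensus in all. The 7 elements are shown because the values below are given beside the peaks that cover or adjoin them. Each reads 5′ to 3′ on the strand of its gene, and the capitals mark the 4 bases from the core C to the core G of each decamer.
Ddit4 +3.26 kb, chr10:59411250-59411269, minus strand, 0 mismatches: agaCTTGcctggaCTAGtct
Ddit4 −4.70 kb, chr10:59419209-59419228, minus strand, 0 mismatches: aagCATGtccaggCTAGccc
Phlda3 −6.24 kb, chr1:137656446-137656465, plus strand, 2 mismatches: gagCATGcccgggCTGGtca
Tsc2 +27.75 kb, chr17:24741814-24741833, minus strand, 2 mismatches: aaaCATGtctggaCATGatg
Sesn1 +82.93 kb, chr10:41613297-41613316, plus strand, 2 mismatches: aaaCAGGcccaaaCTTGgtt
Sesn1 +76.70 kb, chr10:41607072-41607091, plus strand, 3 mismatches: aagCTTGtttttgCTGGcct
Inpp5d +17.79 kb, chr1:89534665-89534684, plus strand, 3 mismatches: tagCATGtgcagaCATGgtt
Distances count from the annotated start of the gene in the direction of transcription, with negative values upstream. The Ddit4 +3.26 kb element lay beyond the 3′ end of the gene, the Ddit4 −4.70 kb and Phlda3 −6.24 kb elements lay upstream, the Tsc2 element lay in a coding exon, and the other 3 lay in introns. An unsplit element was not rare among the peaks themselves. It was found in 15.3% of all irradiated B cell peaks and 15.4% of all irradiated non-B cell peaks, and in 3.21% and 3.31% of the same windows moved by 10 kb.

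In 4 of these sites a further decamer lay beside the pair. At Phlda3 −6.24 kb a decamer sat 2 bases ahead of the unsplit element, and the leading pair had 1 mismatch. At Sesn1 +76.70 kb a decamer sat 3 bases ahead of the first decamer of the unsplit element, and that pair had 2 mismatches. At Ddit4 −4.70 kb and Ddit4 +3.26 kb the further decamer came 5 and 11 bases after the unsplit element. These pairs are shown to give the extent of each cluster, with the same use of capitals.
Phlda3 −6.25 kb, spacer of 2 bases, chr1:137656434-137656455, plus strand: agaCAGGcccaggagCATGccc
Sesn1 +76.69 kb, spacer of 3 bases, chr10:41607059-41607081, plus strand: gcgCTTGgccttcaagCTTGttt
Ddit4 −4.68 kb, spacer of 5 bases, chr10:59419194-59419218, minus strand: aggCTAGcccccatgcagCCAGcct
Ddit4 +3.28 kb, spacer of 11 bases, chr10:59411229-59411259, minus strand: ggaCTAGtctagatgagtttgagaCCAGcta
Pairs split by 1 to 15 bases with at most 2 mismatches were found in 15.9% of irradiated B cell peaks and in 11.7% of the moved windows, so that a split pair alone sets a peak little apart from its surroundings. The 120 bases around the element under the strongest Ddit4 peak and around the upstream Phlda3 element are given as context, with the 20 bases of the element in capitals.
Ddit4 downstream context, chr10:59411200-59411319, minus strand: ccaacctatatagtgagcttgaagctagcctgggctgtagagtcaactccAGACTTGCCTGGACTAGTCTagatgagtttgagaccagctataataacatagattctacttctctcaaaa
Phlda3 upstream context, chr1:137656396-137656515, plus strand: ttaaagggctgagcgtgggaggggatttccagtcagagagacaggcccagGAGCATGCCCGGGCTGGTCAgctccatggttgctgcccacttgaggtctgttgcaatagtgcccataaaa

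After irradiation all 9 genes had a p53 peak in both compartments, while without irradiation 4 had one in the B cell list and 2 in the non-B cell list. The 4 in mock B cells were Sesn2, Ddit4, Phlda3 and Inpp5d, against 4.46% of all protein-coding genes, and the 2 in mock non-B cells were Sesn2 and Phlda3, against 2.27%. The 9 in irradiated B cells stood beside 53.4% of all genes, and the 9 in irradiated non-B cells beside 51.8%. None had a peak in the Trp53-/- list, where 0.126% of all genes had one. The median window of the 9 genes was 38.5 kb long, against 35.5 kb for all genes.

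With the peak midpoint between 5 kb upstream and 2 kb downstream of an annotated start site, called a promoter peak here, the counts were 2 genes in mock B cells (Ddit4 and Phlda3) and 1 in mock non-B cells (Phlda3), beside 1.96% and 0.949% of all genes. Sesn2 fell just outside this window, with midpoints at −5.08 kb in mock B cells and −5.18 kb in mock non-B cells. All 9 had a promoter peak in irradiated B cells and in irradiated non-B cells, beside 39.3% and 38.2% of all genes. The promoter peak of Tsc2 lay where its start faces that of Nthl1 and cannot be assigned to either gene. Peaks were ranked within a list by the deposited value, taken from its distribution to be −log10 of the peak p-value, and the percentile given below is the share of the list at or under a peak. A peak of the top quintile of irradiated B cells was found at 7 genes, all but Sesn3 and Prkab1, beside 16.1% of all genes. In irradiated non-B cells it was also 7 genes, all but Sesn1 and Sesn3, beside 16.4%. With irradiated non-B cell peaks ranked by width, the 7 held Sesn1 (percentile 93.2 by width) and not Prkab1 (59.4). The highest peak of a gene had a median percentile over the 9 genes of 94.9 in irradiated B cells and 93.6 in irradiated non-B cells, against 66.5 and 67.5 over all genes that had a peak.

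Genes with an element-bearing peak were fewer. In irradiated B cells these were Sesn1, Ddit4, Phlda3, Inpp5d and Tsc2, 5 of 9 beside 11.6% of all genes, and irradiated non-B cells gave the same 5 names beside 10.3%. For Sesn1 the elements counted were different ones, at +82.93 kb in irradiated B cells and at +76.70 kb in irradiated non-B cells. With the search kept within 100 bp of the midpoint, the count was 2 genes in each IR list, beside 8.71% and 7.56% of all genes. In mock B cells it was 1 gene, Phlda3, beside 0.981%, and in mock non-B cells it was 0 of 9, beside 0.76%. Counted by peaks rather than genes, 6 of 37 member peaks in irradiated B cells (16.2%) and 5 of 38 in irradiated non-B cells (13.2%) held an element, which is near the share in the whole lists given above. The members had more peaks each than genes at large, a median of 3 in irradiated B cells and 4 in irradiated non-B cells against 1 in both.

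**Figure D1:**
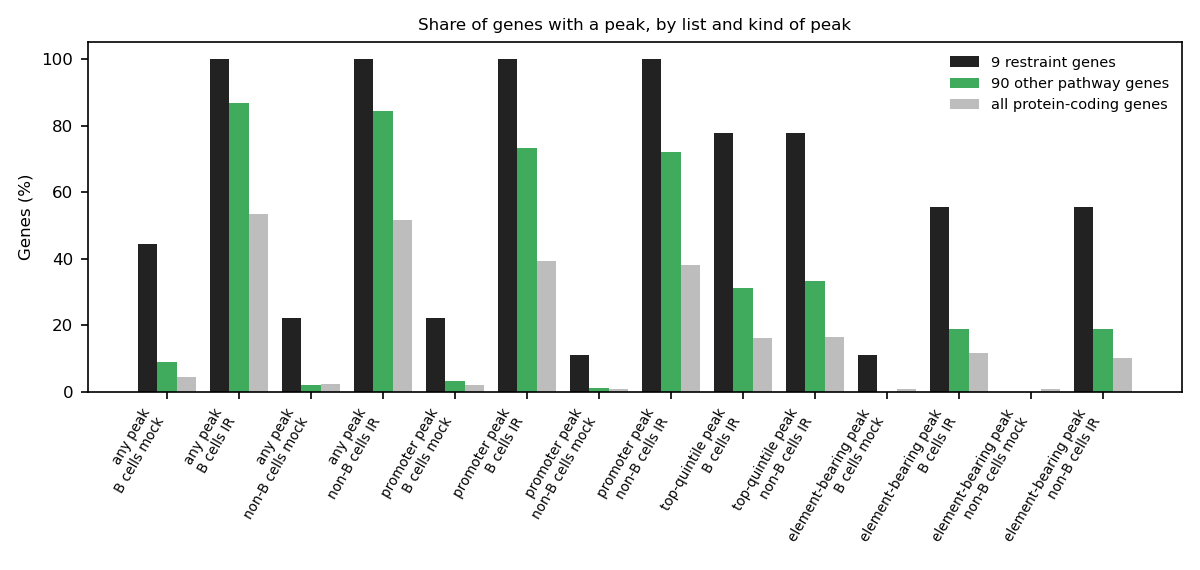
Share of genes, in percent on an axis from 0, that had a peak of each kind in each wild-type list, for the 9 restraint genes (black), 90 other genes of the pathway (green) and all protein-coding genes (grey). The black bars reach 100% for any peak and for promoter peaks in both IR lists, where the grey bars stand at 53.4 and 51.8% and at 39.3 and 38.2%. The green bars stand there at 86.7 and 84.4% and at 73.3 and 72.2%.

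The sestrins take part in the amino acid branch, where they bind GATOR2 and so keep the Rag GTPases from bringing mTOR complex 1 to the lysosome. Sesn2 (chr4:132047947-132066416, minus strand, gene ENSMUSG00000028893.8) carried one of the 2 sites, of the 43 at these 9 genes, that were found in all 4 wild-type lists. This upstream site had a deposited value of 11.1 in mock B cells, at −5.08 kb and percentile 64.2, and of 208 in irradiated B cells, at −5.12 kb and rank 224 of 24507. It had 10.75 in mock non-B cells, at percentile 48.3, and 289 in irradiated non-B cells, at rank 202 of 21400. Its percentile was 99.1 in both IR lists, so its place near the top was common to the compartments, while in the mock lists it stood around the middle. Because a deposited value depends on the depth and background of its library and is not normalised between libraries, 208 and 289 cannot be compared with each other.

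Sesn2 had further IR peaks at its start and in its first kilobase. The peak over the start had 39.8 in irradiated B cells (percentile 80.3) and 32.7 in irradiated non-B cells (74.7), and an intronic peak around +0.71 kb had 73.9 (92.6) and 43.1 (83.4). A further site at +15.81 kb was called only in irradiated non-B cells, with a value of 8.36 at percentile 5.80, close to the bottom of the list. None of the 4 held an unsplit element with both core bases. When the core bases were not demanded, a choice made after these values were seen, the −5.1 kb site gave a match with 3 mismatches, in which the second decamer has no G at its position 7. It is shown because it lies under the strongest Sesn2 peak of every list.
Sesn2 upstream, chr4:132071539-132071558, minus strand, 3 mismatches without the core demanded: aaaCATGcctggtCCTAtcc
Such looser matches were found in 26.9% of irradiated B cell windows and 15.2% of the moved windows.

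Sesn1 (chr10:41530380-41628230, plus strand, ENSMUSG00000038332.6) had 5 peaks in each IR list and none in a mock list. Its strongest lay in an intron around +83.15 kb, with 47.5 in irradiated B cells (percentile 84.9) and 26.1 in irradiated non-B cells (65.4). The +82.93 kb element printed above fell inside the B cell peak and ahead of the non-B cell peak, which began at base 41613427. A site at the second annotated start of the gene had 19.5 in irradiated B cells at +77.06 kb (50.3) and 18.4 in irradiated non-B cells at +76.95 kb (48.6), and the +76.70 kb element was within 300 bp of the midpoint of the non-B cell peak alone. Near the first start there were 2 weak sites. Both lay closer to the start of the neighbouring gene Cep57l1. The one at −0.91 kb had 15.45 (37.4) and 12.7 (25.7), and the one at −0.63 kb was called in irradiated non-B cells only (9.84, percentile 11.8). An intronic site at +80.89 kb was called in irradiated B cells only, with 19.3 at percentile 48.6, and one at +78.26 kb lay at percentiles 2.04 and 11.7.

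Sesn3 (chr9:14080745-14130582, plus strand, ENSMUSG00000032009.7) had the lowest-ranking top peak of the 9 genes in both IR lists. Its 3 shared sites had 31.2 (percentile 71.8) and 19.4 (49.9) at −1.14 kb, 19.95 (51.1) and 18.98 (49.3) at −0.19 kb, and 28.5 (68.0) and 21.5 (55.6) in an intron at +17.72 kb, in irradiated B cells and irradiated non-B cells. A site at +19.94 kb was called in irradiated non-B cells only, with 6.41 at percentile 0.748. No Sesn3 peak reached the top quintile of a list, and none held an unsplit element.

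Ddit4 (chr10:59412423-59414518, minus strand, ENSMUSG00000020108.3) encodes REDD1, a stress-induced protein that restores TSC activity against AKT. Its strongest peak lay just beyond the 3′ end of this short gene, with 243 in irradiated B cells (rank 126, percentile 99.5, width 2074 bp) and 370 in irradiated non-B cells (rank 119, percentile 99.4, width 2112 bp). The element without mismatches at +3.26 kb lay inside both of these peaks. No mock list had a peak at this site.

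The Ddit4 start had a peak in 3 lists. The values were 8.85 in mock B cells (percentile 41), 98.0 in irradiated B cells (95.5) and 127 in irradiated non-B cells (96.8), with none called in mock non-B cells. No unsplit element was found there. A weaker peak over the coding exon had 26.5 (65.2) in irradiated B cells and 17.3 (45.1) in irradiated non-B cells. The other element without mismatches, at −4.70 kb, lay under a peak called only in irradiated B cells, with 14.35 at percentile 33.4. Elements with an identical number of mismatches therefore lay under a peak near the top of both IR lists and under one in the lower part of a single list.

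Tsc2 (chr17:24732882-24769574, minus strand, ENSMUSG00000002496.8) encodes tuberin, the subunit of the TSC complex that switches off Rheb, the activator of mTOR complex 1. Its main peak lay far inside the gene, over a coding exon at +27.75 kb, with 130 in irradiated B cells (rank 668, percentile 97.3) and 117 in irradiated non-B cells (rank 766, percentile 96.4). The +27.75 kb element with 2 mismatches sat at the middle of these peaks. At the start of the gene, which faces the start of the DNA repair gene Nthl1, a low peak had 15.1 (36.2) in irradiated B cells and 16.3 (40.3) in irradiated non-B cells, and it cannot be assigned to either gene. No mock list had a Tsc2 peak.

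Prkab1 (chr5:116463595-116474517, minus strand, ENSMUSG00000029513.7) encodes a beta subunit of AMPK, the energy sensor that activates TSC. It had a single peak in each IR list, over its start, with 36.5 in irradiated B cells (rank 5541, percentile 77.4) and 64.5 in irradiated non-B cells (rank 1809, percentile 91.6). By value it was in the top quintile of the non-B cell list alone, a place it lost when peaks were ranked by width (59.4), and its closest 20-base match without the core demanded had 6 mismatches.

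**Figure D2:**
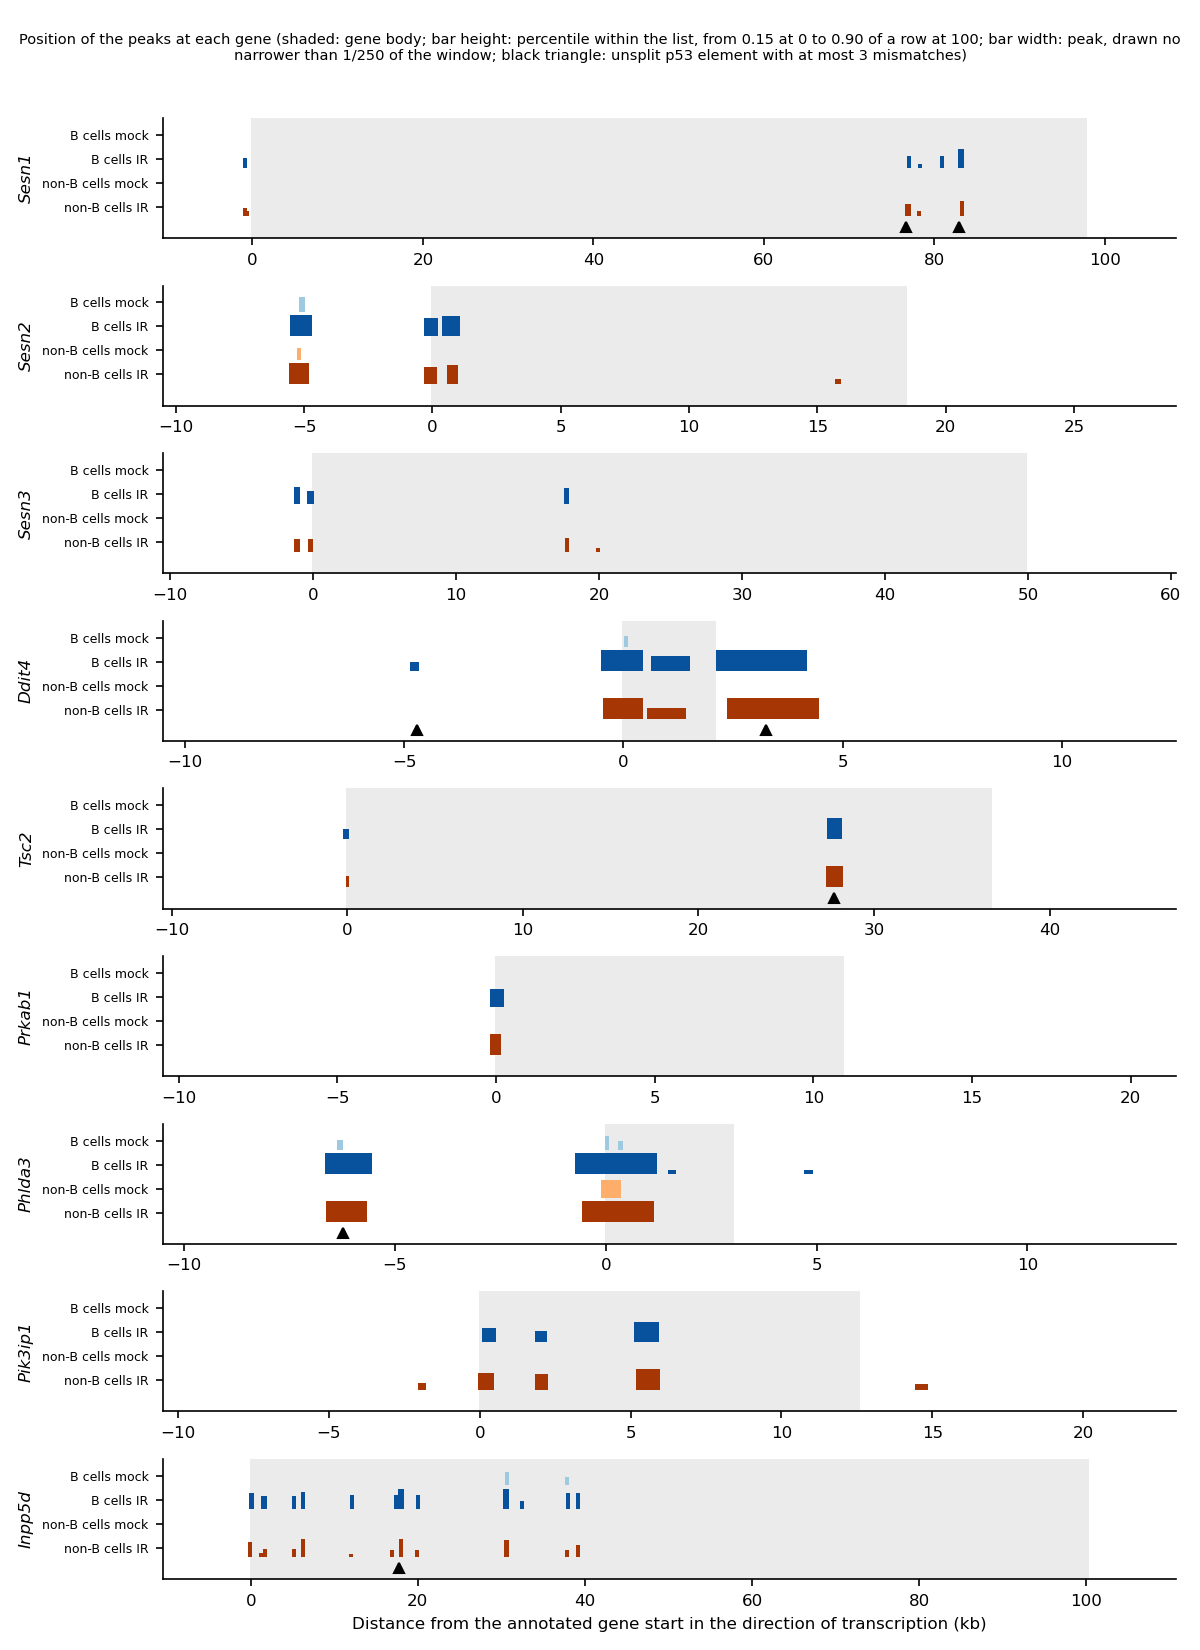
Position of every peak at the 9 genes, with distance from the annotated gene start in the direction of transcription in kb on the horizontal axis, a row for each wild-type list, grey shading for the gene body and black triangles for unsplit elements. Taller bars stand for a higher percentile within the list; the tall bars of Sesn2 (−5.14 kb), Ddit4 (+3.28 kb), Tsc2 (+27.75 kb) and Phlda3 (−6.10 and +0.25 kb) appear in both IR rows, and the pale mock bars appear at 6 sites of Sesn2, Ddit4, Phlda3 and Inpp5d.

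Phlda3 (chr1:137662696-137665713, plus strand, ENSMUSG00000041801.5) encodes a small protein made of little more than a pleckstrin homology domain, which competes with AKT for membrane lipids. It had the highest-ranking peak of the 9 genes in both IR lists. The peak over its start had 255.55 in irradiated B cells (rank 96, percentile 99.6, width 1942 bp) and 394 in irradiated non-B cells (rank 97, percentile 99.6, width 1720 bp). In mock cells the same site had 20.9 in non-B cells (percentile 81.5), the only member peak in the top quintile of a mock list, and separate calls of 10.3 (59.7) and 7.82 (31.1) in B cells. This was the other of the 2 member sites found in all 4 wild-type lists.

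A second Phlda3 site lay upstream, over the element at −6.24 kb. It had 8.41 in mock B cells (percentile 37.8), 208 in irradiated B cells (rank 223, percentile 99.1) and 190 in irradiated non-B cells (rank 406, percentile 98.1), and it was not called in mock non-B cells. Of the 6 member sites with a mock peak, this was the one with an unsplit element, which the narrow mock peak, ending at base 137656461, covered in part. Over the start no unsplit element was found, and the closest match without the core demanded had 4 mismatches. Weak peaks at +1.57 and +4.8 kb were called only in irradiated B cells, each with 8.33, at percentiles 5.65 and 5.78.

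Pik3ip1 (chr11:3230404-3242974, plus strand, ENSMUSG00000034614.8) encodes a transmembrane protein that inhibits the catalytic subunit of PI3K. It had 3 sites in both IR lists and no mock peak. The highest was intronic, with 59.98 in irradiated B cells at +5.53 kb (percentile 89.8) and 76.6 in irradiated non-B cells at +5.57 kb (93.6). At the start the values were 21.4 (54.5) and 30.1 (71.4). At a later annotated start, in an exon about +2.04 kb, they were 15.45 (37.7) and 26.5 (66.2). At all 3 sites the percentile was higher in the non-B cell list. The 2 sites called only in irradiated non-B cells, at −1.91 kb (11.15, percentile 19.2) and at +14.64 kb (9.27, percentile 10.6), were low, and the latter lay inside the neighbouring gene Limk2.

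Inpp5d (chr1:89516887-89617082, plus strand, ENSMUSG00000026288.8) encodes SHIP-1, the 5-phosphatase that removes PIP3 in blood cells. It had 12 peaks in each IR list, more than 99.6% of all genes in irradiated B cells and 99.7% in irradiated non-B cells had. Its window of 120.2 kb was the longest of the 9, and all of its peak midpoints lay between −0.04 and +39.17 kb. They fell on 13 sites, of which 10 were called in both IR lists.

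The strongest Inpp5d site in B cells was at +30.56 kb, with 10.01 in mock B cells (percentile 54.1), 90.6 in irradiated B cells (94.9) and 34.7 in irradiated non-B cells (77.1). The site at +18.02 kb had 71.0 in irradiated B cells (92.2) and 38.4 in irradiated non-B cells (80.4). The +17.79 kb element lay inside the B cell peak and ahead of the non-B cell peak, which began at base 89534710. In irradiated non-B cells the highest was instead at +6.27 kb, with 42.2 (83.1), where irradiated B cells had 37.5 (78.3). A second mock site at +37.94 kb had 7.82 in mock B cells (28.1), 28.9 in irradiated B cells (68.9) and 12.1 in irradiated non-B cells (23.8). At +12.07 kb the compartments lay furthest apart, with 25.2 (62.1) in irradiated B cells and 6.45 (0.785) in irradiated non-B cells. By their highest peak, the other shared sites lay between percentiles 53.7 and 73.0 in irradiated B cells and between 21.4 and 64.9 in irradiated non-B cells. No peak was called anywhere in the Inpp5d window in mock non-B cells.

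**Figure D3:**
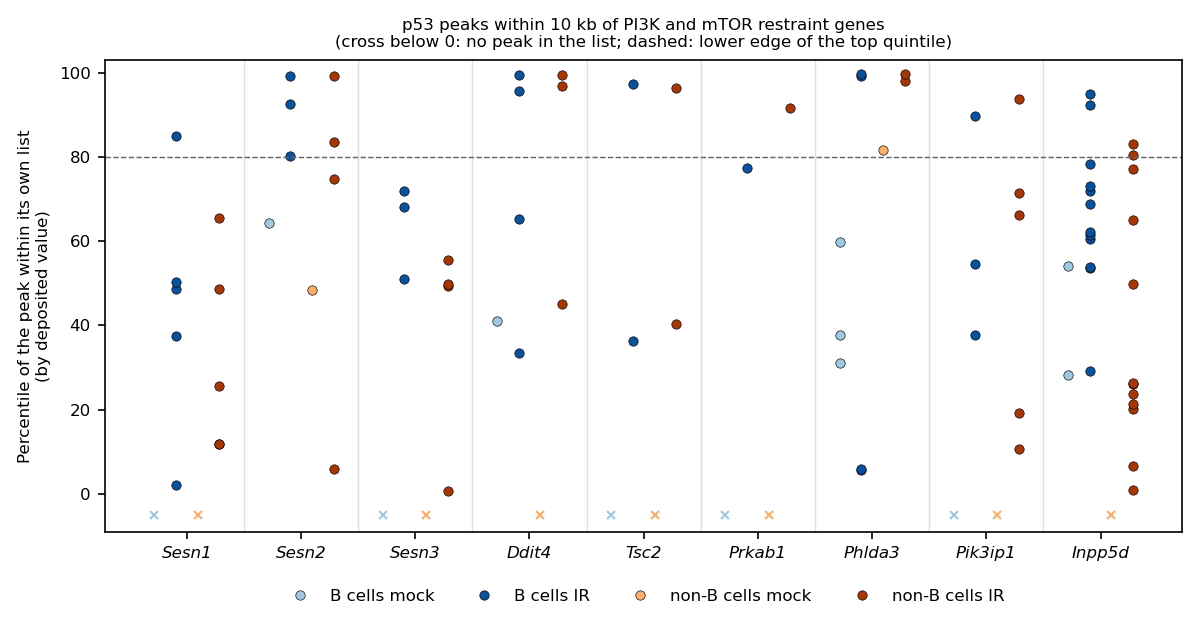
Percentile of each peak within its own list, by deposited value, for every peak at the 9 genes in the 4 wild-type lists; crosses below 0 mark a list without a peak and the dashed line is the lower edge of the top quintile. In both IR lists Sesn2, Ddit4, Tsc2 and Phlda3 reach above 96, Sesn3 stays below 72, and in the mock lists only the Phlda3 peak of non-B cells, at 81.5, lies above the line.

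Over all 9 genes the peaks fell on 43 sites, and 31 of these were called in both IR lists. Of the remaining sites, 6 were called only in irradiated B cells and 6 only in irradiated non-B cells. In peaks, 31 of 37 in irradiated B cells (83.8%) overlapped an irradiated non-B cell peak, where 73.6% of the whole list did, and 32 of 38 in irradiated non-B cells (84.2%) overlapped an irradiated B cell peak, where 85.3% did. The sharing was thus near that of the lists in one direction and somewhat higher in the other. The sites called in a single IR list ranked from the bottom of the list to percentile 61.4, reached by the Inpp5d site at +17.38 kb of irradiated B cells.

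At the 31 shared sites, the percentile was higher in irradiated B cells at 23 (74.2%), with a median difference, B cells minus non-B cells, of 5.64 percentile points. Among all 18045 overlapping irradiated B cell peaks it was higher in B cells at 59.3%, with a median of 2.54 and with 5% of the differences below −28.6 and 5% above 39.1. Inpp5d was higher in B cells at 9 of 10 sites with a median difference of 25.4 and a range of −4.74 to 61.4. The reverse held for Pik3ip1, which was lower in B cells at 3 of 3 sites with a median of −16.9, and for the single Prkab1 site at −14.2. Sesn3 was higher in B cells at 3 of 3 sites with a median of 12.4.

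The sites at percentile 96.4 or above in both IR lists ranked alike in both compartments. The difference was 0.0293 points at the Sesn2 upstream site, 0.0413 at the Ddit4 downstream site, 0.061 and 0.987 at the start and upstream sites of Phlda3, and 0.853 at the Tsc2 exon. Near the top of a list a percentile has little room to differ, so small differences were fixed by this choice of sites. The other shared sites in the top quintile of either IR list differed more, from −14.2 points at Prkab1 to 19.5 at the strongest Sesn1 site. Sites of a gene share their library and neighbourhood and are not independent, and binding in fewer cells and weaker binding per cell cannot be told apart in these chromatin pools. With 1 library each, a difference between libraries and a difference between cell types cannot be told apart either.

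**Figure D4:**
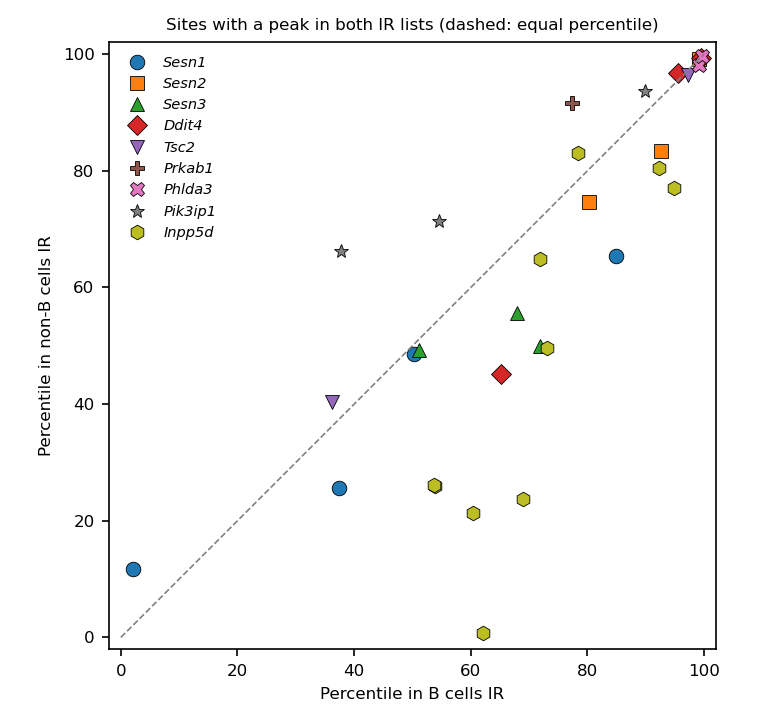
Percentile of the 31 shared sites in irradiated B cells (horizontal axis) and in irradiated non-B cells (vertical axis), with a symbol for each gene and a dashed line at equal percentile. The Inpp5d symbols lie below the line at 9 of 10 sites, all 3 Pik3ip1 symbols lie above it, and the top sites of Sesn2, Ddit4, Tsc2 and Phlda3 crowd at the upper right corner.

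Every mock peak of a member was also called after irradiation. All 7 member peaks of mock B cells and both of mock non-B cells overlapped an IR peak of their compartment, where 88.2% and 90.9% of the whole mock lists did. They fell on 6 sites, and at each of these the IR percentile was above the mock percentile of the same compartment. The same was so for 87.4% of all 1246 mock B cell peaks that overlapped an IR peak and for 88.3% of 647 such mock non-B cell peaks, so it does not set the members apart. Read from the IR lists, 6 of 37 member peaks (16.2%) in B cells and 2 of 38 (5.26%) in non-B cells overlapped a mock peak, where 4.28% and 2.43% of the whole lists did.

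The lists differ greatly in length, which bears on these counts. With each IR list shortened by value to the length of its mock list, 5 of the 9 genes had a peak in irradiated B cells (Sesn2, Ddit4, Phlda3, Inpp5d and Tsc2) against 4 in mock B cells, and 3 in irradiated non-B cells (Sesn2, Ddit4 and Phlda3) against 2 in mock non-B cells. In the shortened IR lists 4.86% and 2.48% of all genes had a peak. How far the longer IR lists come from more binding and how far from deeper libraries cannot be told apart, since depth is unknown. The narrowest peak also differed, being 55 and 53 bp wide in the mock lists, 175 and 174 bp wide in the IR lists of wild-type cells, and 55 bp wide in the Trp53-/- list, so that the absence of the 9 genes from the Trp53-/- list was not measured on the footing of the wild-type IR lists. In the wild-type groups, p53 may have sat at a site that the caller did not list.

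The sites differed in sequence around the peak. In irradiated B cells, 14 of 37 member peaks had their midpoint within 1 kb of an annotated start of their gene and 19 of 37 lay in introns, and in irradiated non-B cells these were 16 and 18 of 38. Most of the intronic peaks in both lists were those of Inpp5d. The shares of the whole lists in these positions were not computed, so the counts do not set the members apart. The ratio of observed to expected CpG dinucleotides in the 600 bases around the midpoint was 0.95 at the Phlda3 start, 0.73 at the Ddit4 start, 0.89 at the Tsc2 start and 1.02 at the Prkab1 start in irradiated B cells. It was 0.71 at the Sesn2 start and 0.72 at the Sesn3 start, but 0.33 at the Inpp5d start (+0.09 kb) and 0.27 at the Pik3ip1 start (+0.31 kb). At later annotated starts it was 0.77 for Pik3ip1 (+2.02 kb) and 0.96 for Sesn1 (+77.06 kb), but 0.12 for Inpp5d (+1.57 kb). At peaks holding an unsplit element in irradiated B cells it was 0.08 at Sesn1, 0.09 and 0.14 at Ddit4, 0.26 at Phlda3, and 0.13 at both Inpp5d and Tsc2. In irradiated non-B cells the element-bearing Sesn1 peak at the second start stood apart from these, with 0.83. The median ratio was 0.296 over all irradiated B cell peaks and 0.316 over all irradiated non-B cell peaks. It was not computed for the element-bearing peaks of the whole lists. A ratio of at least 0.6 was found at 9 of 37 member peaks in irradiated B cells and 10 of 38 in irradiated non-B cells, beside 27.6% and 30.4% of the whole lists.

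Peaks were also common at the other genes of the pathway. Of 90 further genes of PI3K, AKT, TSC, AMPK, GATOR, Rag and mTOR complexes, 8 had a peak in mock B cells (8.89%), 78 in irradiated B cells (86.7%), 2 in mock non-B cells (2.22%), 76 in irradiated non-B cells (84.4%) and 0 in the Trp53-/- list. In the same order, 4.46, 53.4, 2.27, 51.8 and 0.126% of all genes had a peak, so that the share in mock non-B cells was near that of all genes. A promoter peak was found at 3, 66, 1 and 65 of the pathway genes in the 4 wild-type lists (3.33, 73.3, 1.11 and 72.2%). Of all genes, 1.96, 39.3, 0.949 and 38.2% had one. A peak of the top quintile was found at 28 (31.1%) in irradiated B cells and 30 (33.3%) in irradiated non-B cells, and an element-bearing peak at 17 (18.9%) in both, against the genome shares of 16.1, 16.4, 11.6 and 10.3% given above. Among pathway genes with a peak, the median percentile of the highest was 73.1 in irradiated B cells and 74.2 in irradiated non-B cells.

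Values are given for pathway genes that ranked high in irradiated B cells among those with a mock peak or with an element-bearing peak of the top quintile in both IR lists. Ulk1, the autophagy kinase that mTOR complex 1 inhibits, had 231 in irradiated B cells (percentile 99.4) and 178 in irradiated non-B cells (97.9) near −4.13 kb, over an element with 2 mismatches. Foxo3, a transcription factor that AKT keeps out of the nucleus, had 227 (99.3) and 293 (99.1) near +15.45 kb, also with 2 mismatches. The percentiles of both genes lay between 97.9 and 99.4, where the top peaks of Sesn2, Ddit4, Tsc2 and Phlda3 lay between 96.4 and 99.6.

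Depdc5, a subunit of GATOR1, the Rag-inhibiting complex, had 140 (97.7) and 108 (96.0) over an element with 1 mismatch. Pik3r4, a regulatory subunit of the class III PI3K, had 122 (96.96) and 78.6 (93.9), and Cab39, a scaffold of the kinase that activates AMPK, had 93.9 (95.3) and 95.3 (95.3). Of the genes with a mock peak, Prr5, a subunit of mTOR complex 2, had 7.72 in mock B cells and 115 in both IR lists (96.7 and 96.3). Inpp5k, an inositol 5-phosphatase, had 9.13 in mock B cells, 96.1 in irradiated B cells and 71.6 in irradiated non-B cells. Prr5l, a relative of Prr5, had 7.76, 82.6 and 58.7. Gsk3b, a kinase that AKT inhibits, had a mock peak of 5.95 at its start and its highest IR peaks, 83.4 and 61.2, elsewhere in the gene window.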

How the data were processed

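p53 ChIP-seq peak lists of 5 libraries were used. The input library was not used here. The authors masked low-quality bases with fastq_masker, aligned reads to mm9 with BWA (0.6.2 in the submitters' processing notes, which also name SAMtools) and called peaks with MACS, 1 list per library. The deposited column has no header, and its unit was inferred from the values as −log10 of the p-value that the authors obtained for the peak. In the wild-type lists 25.3 to 36.6% of the values below 40 matched Poisson tail probabilities at a single background mean, fitted to each list on its own. This mean was 0.5945 in mock B cells and 1.00 in mock non-B cells. It was 2.03 in irradiated B cells and 2.02 in irradiated non-B cells, and the source of this difference between lists was not tested. The other values were not accounted for in this way, and for the Trp53-/- list the unit was assumed. A limit of 8, which the study states for this scale, had not been applied to the column (lowest values 5.01 to 5.85). Read depth is unknown.

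Genes and sequences came from GENCODE vM1 and the mm9 genome. Python 3.11.15, numpy 2.4.6, pandas 2.3.3, scipy 1.17.1, samtools 1.23.1, matplotlib 3.10.9 and pysam 0.24.0 served for the computations. Overlap, ranking and element search were tested on simulated data. No test was run, since each group had 1 library. Sites joined overlapping peaks of any list. The 9 genes, the 90 pathway genes (4 found by an older symbol, through a RefSeq table of another build used for names only) and all rules were chosen with earlier results of these data known. All 9 members were named. Of the pathway genes, the 10 highest in irradiated B cells were named of the 16 with a mock peak or with an element-bearing peak of the top quintile in both IR lists. The values of 1 of these are not reported here. For members with a mock peak, the 3 genes with the nearest percentiles in the 4 wild-type lists were named, leaving out genes sharing a peak with the member. Alternatives changed the value limit, gene window, overlap rule, promoter, ranking, element search, list length and removal of Trp53-/- peaks.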

Additional observations from a re-analysis of the deposited data

How the results depend on the processing

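Of 136 recomputed counts and medians, 107 stayed within 1.5 times (counts) or the 95% Wilson interval (percentiles) of the reported value, and 29 moved. The interval took a percentile as a share of the peaks in its list. It served only as a fixed limit for change and does not measure a spread over genes, mice or libraries. With IR lists cut to mock length, members fell to 5 (B cells) and 3 (non-B cells) with a peak, beside 4.86% and 2.48% of all genes. They fell to 2 and 2 with a promoter peak, 3 and 2 with a top-quintile peak and 3 and 2 with an element-bearing peak, and pathway genes with a peak to 9 and 3. Without extension of the gene body, members with a peak in mock non-B cells came to 1 (also with 5 kb), pathway genes with a mock peak to 5 and 1, and the median highest percentile to 92.6 in irradiated B cells and 91.6 in irradiated non-B cells. With values of at least 8, pathway genes with a mock peak came to 3 and 1. The single top-quintile member of mock non-B cells, Phlda3, was lost with that limit and in the top decile (0 in both). Ranking by width gave 1 top-quintile member in mock B cells and medians of 93.7 and 94.2. Of 72 recomputed percentiles of single members, 50 stayed within their interval; by width, in irradiated non-B cells, Prkab1 went to 59.4 and left the top quintile and Sesn1 went to 93.2 and entered it. Element-bearing members came to 0 in mock B cells when the whole peak was searched, 2 in both IR lists within 100 bp of the midpoint, and 3 in irradiated non-B cells with at most 2 mismatches. Without the core, an alternative chosen after seeing the data, they came to 3 in mock B cells and 1 in mock non-B cells. Among these alternatives, shares of all genes were computed only for genes with any peak in the cut lists and for the search within 100 bp. The other recomputed counts have no such share beside them and describe the named genes alone. Removing the 7 to 14 peaks per wild-type list that overlapped a Trp53-/- peak moved no count. No paired analysis was possible because no group held more than 1 library, so none could be left out. Depth is unknown, so weak and missing peaks cannot be told apart.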

Other observations

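Genes whose highest peaks ranked most like those of a member over the 4 wild-type lists were looked up for the 4 members with a mock peak, with a gene without a peak in a list set to 0 there. For Ddit4 these were C230081A13Rik, Cdkn2b and Smox, at distances of 0.459, 0.772 and 1.09 percentile points. Cdkn2b encodes a cyclin-dependent kinase inhibitor and Smox the spermine oxidase. Cdkn2b stood at percentile 41.3 in mock B cells, 99.3 in irradiated B cells and 98.8 in irradiated non-B cells, with no peak in mock non-B cells.

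For Phlda3 the nearest genes were Ext1 (5.53 points), Txndc11 (13.0) and Ninj2 (14.4). Ext1, a heparan sulfate polymerase, had percentiles of 57.6, 98.5, 76.5 and 98.7 in mock B cells, irradiated B cells, mock non-B cells and irradiated non-B cells. For Sesn2 they were Naaladl1, Sac3d1 and Snx15, which share the same highest peaks with each other and lay 7.81 points away. For Inpp5d they were Trim34a (3.77), Trim6 (4.74) and Slc15a4 (4.89), the last an endolysosomal transporter, with percentiles of 52.5 in mock B cells, 93.1 in irradiated B cells and 87.3 in irradiated non-B cells. The likeness is a description over 4 lists and was not tested.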
